A study of Mus musculus with 9 samples.

Results

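The miR-532, miR-500 and miR-362 cluster is a group of miRNA hairpins that lie in an intron of Clcn5 on mouse chromosome X. It was followed in the miRNA-Seq libraries of the tibialis anterior (TA) muscle. Its members were chosen by name, as the rows of the count tables for mmu-miR-532-5p, mmu-miR-532-3p, mmu-miR-500-3p, mmu-miR-501-3p, mmu-miR-362-3p, mmu-miR-362-5p, mmu-miR-188-5p and mmu-miR-660-5p, written without the species prefix in what follows. Of these 8 members, 7 had a row among the 1915 mature miRNAs of the tables, and miR-660-5p was not analysed here. The 5 hairpins behind the 7 members had 10 arms in the tables, so the other 3 arms (miR-188-3p, miR-500-5p and miR-501-5p) are described beside the members.

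The study compared the TA muscle of mice that bore tumors of Lewis Lung Carcinoma (LLC), a mouse lung carcinoma cell line that causes muscle wasting, with that of tumor-free mice. The LLC group held 5 mice (L1, L2, L3, L5 and L6), each given 750000 LLC cells under the skin of each flank and studied at 22 days. The control group held 4 mice (C1 to C4) given 100 µl of PBS, the carrier of the cells, in each flank. The labels name no transgene or other genetic change in either group. The sample labels name C57BL/6J mice aged 10 weeks at injection, whereas the methods name C57BL/10 males aged 8 weeks. The authors dropped a further LLC library (L4) for its quality, and it is not analysed here. Each library is a separate mouse, so the p-values measure the spread between mice. The labels and methods name no batch beyond a shared sequencing lane.

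A miRNA is cut from a hairpin in a primary transcript, and the 5p and 3p arms of the hairpin give separate mature strands of which usually a single arm is kept. The mature strand pairs with target mRNAs mainly through its seed, the bases next to its 5′ end, and lowers their stability or translation. Clcn5 encodes a chloride/proton exchanger of endosomes. Hairpins of the same intron can be carried by the same primary transcript, and miR-501 of this cluster has been studied in muscle stem cells and regenerating fibers.

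On GRCm38 the 5 hairpins lay on the minus strand, as Clcn5 does (chrX:7153810-7319358). In the direction of Clcn5 transcription their order was Mir532 (chrX:7248402-7248497), Mir188 (chrX:7247989-7248056), Mir362 (chrX:7241982-7242046), Mir501 (chrX:7241243-7241351) and Mir500 (chrX:7237683-7237774). The cluster spanned 10.8 kb and began 70.9 kb from the annotated 5′ end of Clcn5. Mir532 and Mir188 were 345 bp apart, and Mir362 and Mir501 were 630 bp apart. The gaps between Mir188 and Mir362 and between Mir501 and Mir500 were wider, at 5942 and 3468 bp. No hairpin overlapped an exon of Clcn5, and each lay within 3 of its 5 annotated transcripts.

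The mature sequences show which arms could share targets, since arms with the same seed recognise the same core site. The RefSeq table used here (GRCm38.p6) matched 6 of the 8 members and 9 of the 10 arms in the count tables, with miR-532-5p and miR-660-5p unmatched. The 6 members and the 5p arms of miR-500 and miR-501, which are close to miR-362-5p in seed, are written from 5′ to 3′, and the capitals mark the seed (bases 2 to 8):
miR-532-3p: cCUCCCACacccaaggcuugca
miR-188-5p: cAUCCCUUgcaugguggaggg
miR-362-5p: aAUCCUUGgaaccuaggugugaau
miR-362-3p: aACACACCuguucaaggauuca
miR-501-5p: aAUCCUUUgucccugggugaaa
miR-501-3p: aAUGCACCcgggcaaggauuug
miR-500-5p: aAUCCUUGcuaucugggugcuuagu
miR-500-3p: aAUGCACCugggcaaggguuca

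The 3p arms of miR-500 and miR-501 shared the seed AUGCACC and 18 of 22 bases. The substitutions from miR-500-3p to miR-501-3p were U9C, G18A, C21U and A22G, with positions counted from the 5′ end, so none fell in the first 8 bases. The authors required no mismatch over the first 8 bases of a read and kept all best matches. As the strands of this pair are the same over those bases, reads of one may also have been counted at the other. The split between this pair is therefore uncertain. miR-362-3p had another seed (ACACACC) but matched miR-500-3p at 17 of 22 bases. miR-362-5p and miR-500-5p shared the seed AUCCUUG, and miR-501-5p had AUCCUUU. Outside the cluster, miR-329-3p carried the seed of miR-362-3p. The seeds of miR-532-3p and miR-188-5p were shared with no other tested miRNA among the 270 of 304 with an entry.

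Total counts were 4992339 to 6548379 in the control group and 6216566 to 7833161 in the LLC group. A level of 3 counts, taken as the lowest that could be shown, was 0.383 to 0.601 CPM (counts scaled to the library total). Levels below are CPM after edgeR's TMM factors, a scaling for the makeup of each library, and they cover mature strands of similar length without length scaling. They compare reads, and whether different strands were captured equally well was not tested. The TMM factors ran from 0.762 in L5, the lowest, to 1.15 in C2. As a check of the tissue, the summed level of the 6 muscle fiber miRNAs (miR-1a, miR-133a, miR-133b, miR-206, miR-499 and miR-208b) was 21902 to 30875 CPM in the control mice and 20862 to 25266 CPM in the LLC mice. Nearly all of it was miR-133a-3p (17440 to 25203 CPM) and miR-133b-3p (3404 to 5644 CPM), so the check rests on these. miR-1a-3p was at only 10.5 to 27.9 CPM, miR-499-5p at 2.18 to 6.49 and miR-208b-3p at 2.84 to 7.44 CPM. The reason for the low level of miR-1a-3p was not tested. The counts of miR-206 were too low for testing. In a bulk sample, fewer cells of a type and less RNA per cell cannot be told apart.

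miR-532-5p, the 5p arm of the hairpin nearest to the 5′ end of Clcn5, had the most reads of the cluster. Its mean level over the 9 mice was 5.20-fold that of the next, miR-501-3p, and it held 54.0 to 66.5% of the reads of the 10 arms in each library. Of the 304 miRNAs that were tested, those that exceeded 32 counts in some library, 35.5% had a higher mean CPM than miR-532-5p. For the other tested members this share was 61.5% (miR-501-3p), 68.8% (miR-362-3p), 70.4% (miR-532-3p) and 80.6% (miR-500-3p). miR-501-3p was above miR-362-3p in 8 of 9 mice, whereas miR-362-3p was above miR-532-3p in only 5 of 9, so that pair had no clear order. miR-532-3p was above miR-500-3p in 8 of 9 mice, and miR-500-3p above miR-362-5p in all 9.

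**Figure D1:**
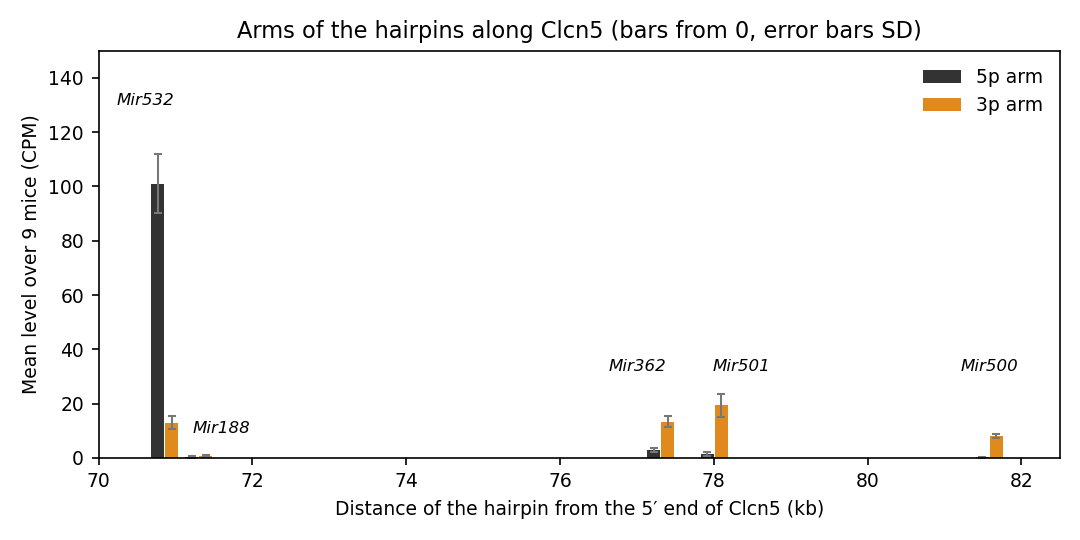
Mean level over the 9 mice (CPM after TMM, y axis from 0) of the 5p arm (black) and 3p arm (orange) of each hairpin against its distance from the 5′ end of Clcn5 (kb); the bars of a pair are set side by side and the error bars are the SD over mice. The 5p arm of Mir532 stands above every other arm, and the 3p arm is the higher of the pair at Mir362, Mir501 and Mir500.

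The arm with more reads differed along the cluster. For miR-532 the 5p arm had 5996 reads over the 9 libraries and the 3p arm 756, with the 5p arm higher in 9 of 9 mice. For the 3 hairpins farthest from the 5′ end of Clcn5 the 3p arm was higher in 9 of 9 mice. It had 4.72-fold the reads of the 5p arm for miR-362, 15.2-fold for miR-501 and 39.8-fold for miR-500. The 3p arms of miR-500 and miR-501, which share a seed, thus held most reads of their hairpins, although the split of reads between these arms is uncertain. miR-188 gave few reads from either arm, 43 from 3p and 23 from 5p, and the 3p arm was higher in 6 mice and equal in 3.

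Low counts left 2 of the 7 members untested. miR-362-5p, the minor arm of Mir362, had 10 to 25 counts per library. miR-188-5p had 0 to 6 counts, with 0 in C4 and L5, which allows a level of up to 0.601 and 0.451 CPM before TMM. Their levels in control and LLC mice were 3.17 ± 0.525 CPM (SD, n = 4) and 2.62 ± 0.743 CPM (SD, n = 5) for miR-362-5p, and 0.524 ± 0.410 against 0.241 ± 0.203 CPM for miR-188-5p. Without the filter on low counts, edgeR's quasi-likelihood test gave adjusted p = 0.800 for miR-362-5p (log2-fold change -0.20) and adjusted p = 0.630 for miR-188-5p (log2-fold change -0.94). No difference between the groups was detected at these counts.

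The comparison of LLC with control mice asked whether the cluster changed in muscle wasting. A miRNA was called where edgeR's quasi-likelihood test gave a Benjamini-Hochberg adjusted p no higher than 0.05 and the change was 1.5-fold or more. None of the 5 tested members was called, beside 0 of 304 miRNAs (0.0%). At an unadjusted p of at most 0.05 there were 0 members, beside 50 of 304 miRNAs (16.4%). On all 304 miRNAs DESeq2 called 8 and limma with voom called 0, and neither called a member. The members' log2-fold changes (LLC over control) ran from -0.19 to 0.12, 2 above 0 and 3 below, with a median of -0.01 beside -0.02 for all tested miRNAs. The 95% interval of all 5 lay within a 1.5-fold change in either direction, as did that of 160 of 304 miRNAs (52.6%). The groups overlapped for each of the 5, and did not overlap for 18 of 304 miRNAs (5.92%), 5 of them higher (1.64%) and 13 lower (4.28%) in the LLC group.

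miR-532-5p had the largest difference of the 5. Its levels were 122, 108, 107 and 97.4 CPM in C1 to C4 and 106, 96.4, 90.9, 84.7 and 97.7 CPM in L1, L2, L3, L5 and L6. C1 was the highest mouse and L5 the lowest, and 3 of 5 LLC mice (L2, L3 and L5) were below every control mouse. The means were 109 ± 10.1 CPM (SD, n = 4) and 95.04 ± 7.81 CPM (SD, n = 5). The log2-fold change was -0.19 (SE 0.118, 95% interval -0.44 to 0.06), with edgeR adjusted p = 0.367. Over every split of the mice into groups of 4 and 5, the two-sided exact permutation p was 0.0476 and the adjusted p over all tested miRNAs was 0.381. That unadjusted p was at most 0.05 for 1 of 5 members beside 38 of 304 miRNAs (12.5%), and leaving out any mouse but C4 took it above 0.05. With library totals in place of TMM it was above 0.05 as well, although the log2-fold change was then -0.34.

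For the 3p arm of the same hairpin no difference between the groups was detected. miR-532-3p was at 13.0, 12.45, 13.1 and 10.5 CPM in the control mice and at 11.8, 14.5, 9.03, 17.4 and 14.2 CPM in the LLC mice. L5, which had the least miR-532-5p, had the most miR-532-3p, and L3 had the least. The log2-fold change was 0.12 (SE 0.194, 95% interval -0.30 to 0.53; edgeR adjusted p = 0.749), and its sign turned with library totals (-0.05) and with the replicate block (-0.14).

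miR-501-3p and miR-500-3p, which share a seed, differed between the groups by less than the spread within them. miR-501-3p was at 17.1, 18.5, 21.8 and 20.7 CPM in the control mice and at 19.1, 21.7, 14.2, 27.6 and 14.1 CPM in the LLC mice. The means were alike, at 19.5 ± 2.13 and 19.3 ± 5.66 CPM, but the LLC mice included both the highest (L5) and the lowest levels (L6 and L3). miR-500-3p was at 9.21, 7.55, 7.08 and 7.71 CPM in the control mice and at 7.77, 7.82, 9.30, 8.49 and 7.68 CPM in the LLC mice. It kept to a narrow range in both groups, with means of 7.89 ± 0.920 and 8.21 ± 0.688 CPM. The log2-fold changes were -0.02 (SE 0.201, 95% interval -0.45 to 0.40, edgeR adjusted p = 0.954) for miR-501-3p and 0.05 (SE 0.178, 95% interval -0.33 to 0.43, edgeR adjusted p = 0.876) for miR-500-3p. The number of miR-501-3p reads per miR-500-3p read, which needs no scaling between libraries, was 2.52 ± 0.512 in control mice and 2.37 ± 0.698 in LLC mice (p = 0.690, exact permutation test, two-sided). It ran from 1.53 in L3 to 3.26 in L5, and reads counted at both strands could affect it.

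miR-362-3p was at 16.3, 14.4, 9.21 and 13.6 CPM in the control mice and at 14.01, 14.2, 12.1, 12.4 and 14.1 CPM in the LLC mice. Here the control mice spread more, since C1 was the highest and C3 the lowest of all 9, and the LLC mice lay between them. The means were 13.4 ± 2.99 and 13.4 ± 1.01 CPM, with a log2-fold change of -0.01 (SE 0.180, 95% interval -0.39 to 0.37, edgeR adjusted p = 0.995). miR-329-3p, with the same seed, was at 4.83 ± 0.834 CPM in control mice and 5.18 ± 1.52 CPM in LLC mice (log2-fold change 0.09, SE 0.251, edgeR adjusted p = 0.853). The signs for miR-362-3p and miR-501-3p turned under other scalings and filters, so neither had a direction.

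The scaling moved the members together with the other miRNAs. The median log2-fold change of all tested miRNAs was -0.02 with TMM, 0.02 with RLE, 0.10 with upper quartile factors and -0.17 with library totals alone. Relative to that median, miR-532-5p stood at -0.17, -0.17, -0.18 and -0.17 and miR-532-3p at 0.14, 0.14, 0.13 and 0.12, in the same order. A change of scaling moves all miRNAs nearly alike, so the likeness of these values over scalings is no further evidence that the arms differ.

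**Figure D2:**
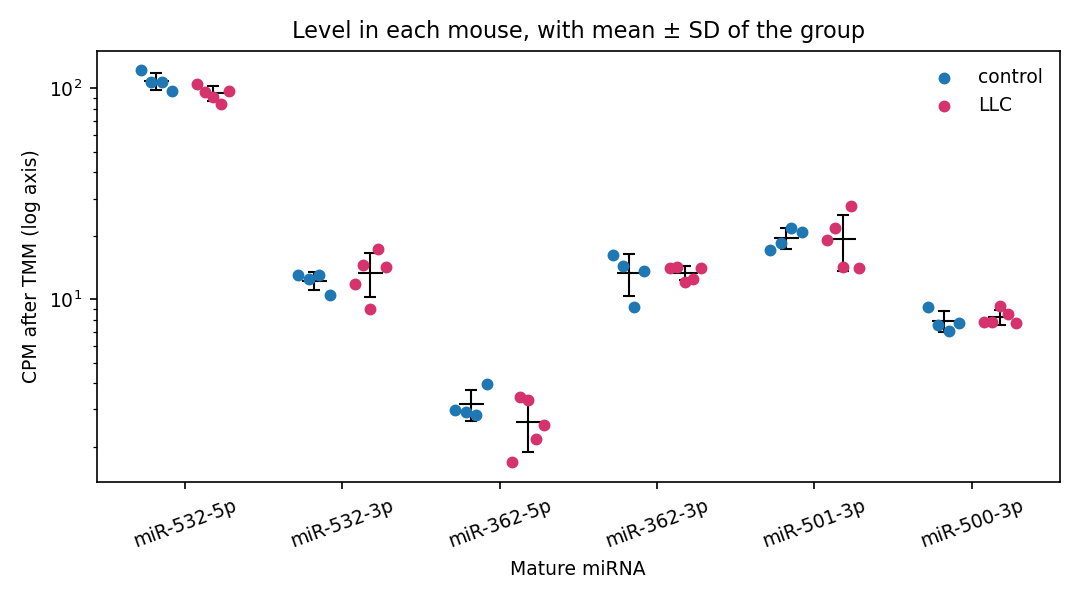
Level of 6 members (CPM after TMM, log axis) in each control (blue) and LLC mouse (red), with the mean and SD of each group in black. The groups overlap for every member shown, with 3 of 5 LLC mice below all control mice for miR-532-5p.

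**Figure D3:**
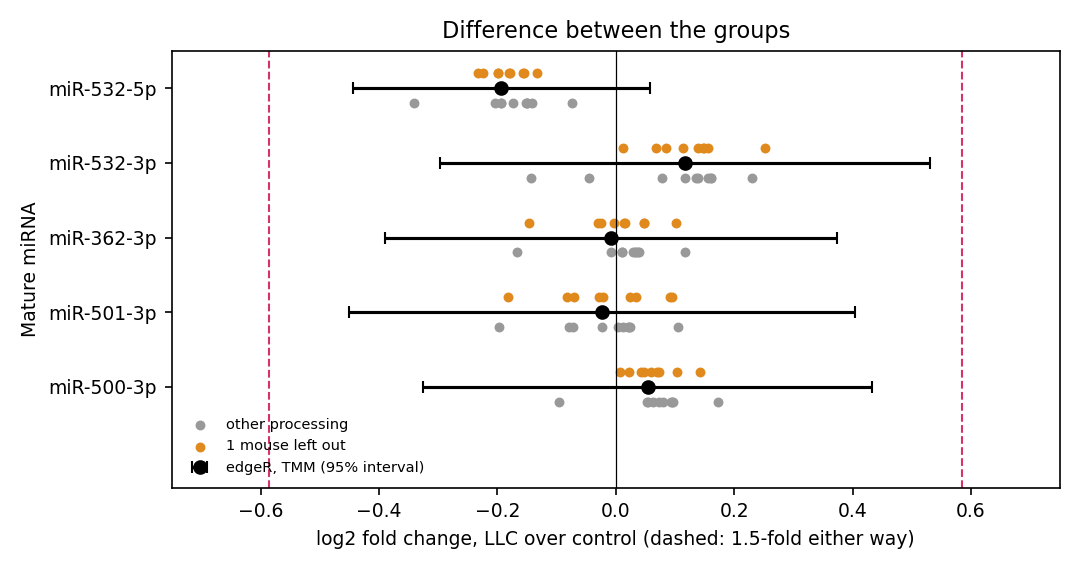
log2-fold change of the LLC over the control group (x axis) for the 5 tested members (y axis), with black points for edgeR with TMM and bars for its 95% interval, orange points for fits without 1 mouse and gray points for other processing. All 5 intervals include 0 and lie between the dashed lines at a 1.5-fold change.

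The ratio of the arms of miR-532 was compared directly, as both come from the same hairpin and the ratio within a library needs no scaling. The control mice had 9.38, 8.66, 8.20 and 9.30 miR-532-5p reads per miR-532-3p read. The LLC mice had 8.93, 6.65, 10.1, 4.88 and 6.87. L2, L5 and L6 were below every control mouse, L3 was above them all, and the lowest ratio, that of L5, had a 95% Wilson interval of 3.88 to 6.13 (counting error only). The means were 8.88 ± 0.557 and 7.48 ± 2.04. The difference of the mean log2 ratio was -0.29 (LLC minus control; two-sided exact permutation test, p = 0.206, adjusted p = 0.411 over 74 hairpins). Leaving out L5 gave -0.15. Of the 74 hairpins 6 had an unadjusted p of at most 0.05 (8.11%), miR-532 not among them, and 39 of the 74 had a difference at least as large.

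**Figure D4:**
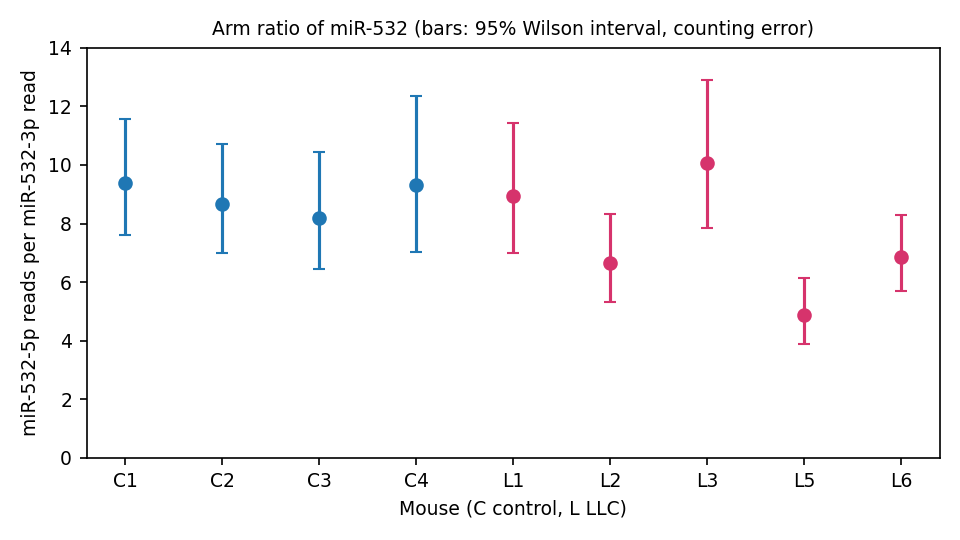
Reads of miR-532-5p per read of miR-532-3p (y axis) in each control (blue) and LLC mouse (red), with 95% Wilson intervals of the counting error. The 4 control mice lie between 8.20 and 9.38, and the 5 LLC mice between 4.88 (L5) and 10.1 (L3).

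The spread over all 9 mice also differed among members. The coefficient of variation was 10.8% for miR-532-5p, 9.47% for miR-500-3p, 14.7% for miR-362-3p, 18.7% for miR-532-3p and 21.7% for miR-501-3p, beside a median of 18.7% over all tested miRNAs. The counts alone would give 3.87% for miR-532-5p and 9.0% for miR-501-3p, below what was seen. For miR-500-3p they would give 13.7%, above the 9.47% seen, so its spread between mice was within the counting error. For miR-532-3p and miR-362-3p the counting error was 10.9% and 10.6%. The summed level of the 10 arms was 167 ± 11.9 CPM in control mice and 155 ± 8.62 CPM in LLC mice.

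Coordination within the cluster was read from the correlation of log2 CPM over the 9 mice, which share libraries and depth. Pearson's r with miR-532-5p was -0.126 for miR-532-3p, -0.108 for miR-500-3p, -0.260 for miR-501-3p and 0.281 for miR-362-3p. In the same order Spearman's rho was -0.167, -0.433, -0.283 and 0.517. The exact permutation p of r was 0.755, 0.784, 0.504 and 0.460, and that of rho 0.678, 0.250, 0.463 and 0.162. None of the 4 r passed Benjamini-Hochberg adjustment over the 303 other miRNAs (adjusted p = 0.657 to 0.893 in the exact permutation test), beside 0 of 303 in all (0.0%) and 34 (11.2%) at an unadjusted p of at most 0.05. By r the members ranked 120 (miR-362-3p), 179 (miR-500-3p), 184 (miR-532-3p) and 206 (miR-501-3p) of 303. Without the 2 mice farthest from the median of miR-532-5p (C1 and L5), r was 0.423, -0.796, 0.504 and -0.192, so the sign turned for miR-532-3p, miR-501-3p and miR-362-3p. For miR-362-3p, r was 0.917 without C3 and -0.0672 without C1, so single mice set it.

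Among the 10 pairs of tested members r was above 0 for 4 and below 0 for 6, with a median of -0.117 beside -0.001 over all 46056 pairs of tested miRNAs. At an unadjusted p of at most 0.05 there were 0 member pairs, beside 115 of the 1505 pairs that hold a tested member (7.64%). The highest r was that of miR-532-3p with miR-501-3p, at 0.568 (exact permutation p = 0.107, adjusted p = 0.700 over the 1505 pairs). Its rho was 0.450 (exact permutation p = 0.230), and r fell to 0.272 without L5 and to -0.300 without L3 and L5. The lowest was that of the seed pair miR-500-3p and miR-501-3p, at -0.290 (exact permutation p = 0.450, adjusted p = 0.869). For comparison, the median r was 0.198 over 21 pairs of the miR-322 cluster (miR-322, miR-503, miR-351, miR-542 and miR-450), also on chromosome X, and 0.501 over 15 pairs of the miR-17-92 cluster. Whether these medians differ was not tested.

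Each r with miR-532-5p was higher when the counts were scaled to library totals alone. It was then 0.322 for miR-532-3p, 0.721 for miR-500-3p, -0.0698 for miR-501-3p and 0.749 for miR-362-3p. Only miR-362-3p had an adjusted p of at most 0.05 (0.0436, exact permutation test), beside 125 of 303 miRNAs (41.3%; 51.8% at an unadjusted p of at most 0.05), and its r was 0.461 without C1 and L5. The median r of all 303 miRNAs with miR-532-5p was 0.643 with library totals and 0.0606 with TMM. The median over the 10 member pairs was 0.312, beside 0.393 over all pairs, 0.620 for the miR-322 cluster and 0.443 for the miR-17-92 cluster, so the order of these 2 clusters turned with the scaling. The highest member pair under TMM, miR-532-3p with miR-501-3p, fell to 0.302.

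**Figure D5:**
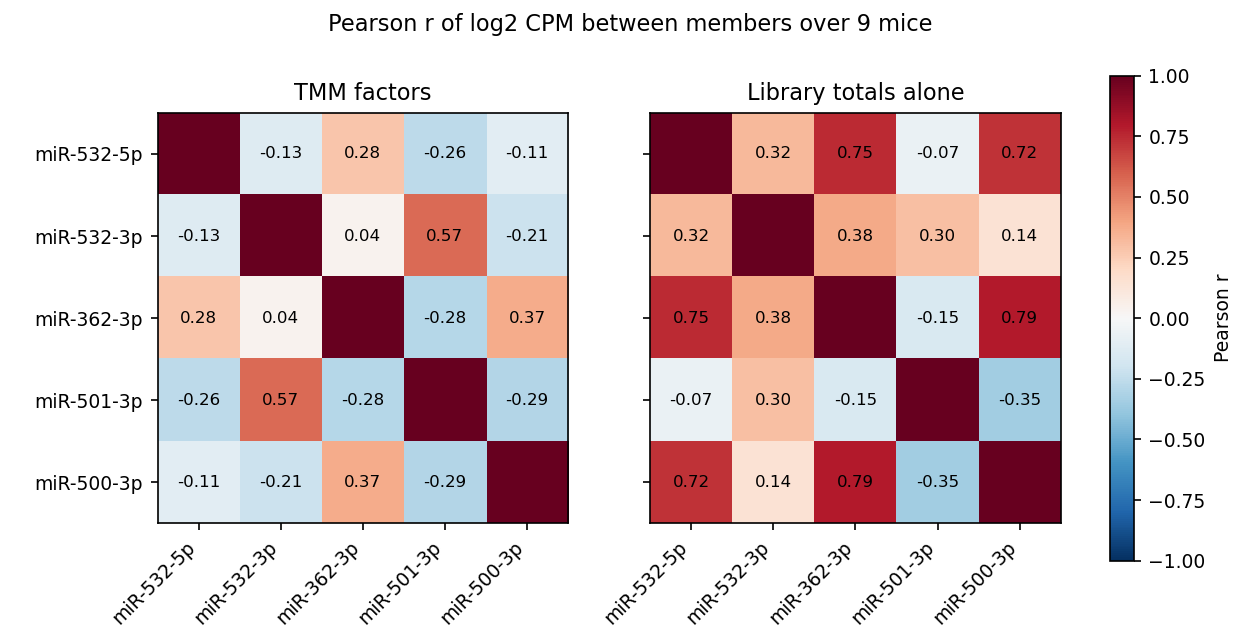
Pearson's r of log2 CPM between tested members over the 9 mice (color from -1 in blue to 1 in red, value in each cell), with TMM factors at the left and with library totals alone at the right. With TMM 4 of the 10 pairs are above 0, and with library totals 7 of the 10 are.

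The miRNAs closest to miR-532-5p over the 9 mice lay outside the cluster. They were miR-378c (r = 0.875, rho = 0.850), miR-130a-3p (r = 0.865, rho = 0.883), miR-542-5p (r = 0.828, rho = 0.733), miR-30d-3p (r = 0.785, rho = 0.733) and miR-6240 (r = 0.770, rho = 0.717). None passed adjustment over the 303 miRNAs (exact permutation test of r, adjusted p = 0.279 for miR-378c and miR-130a-3p and 0.410 for the others). Without C1 and L5 their r was 0.561, 0.756, 0.432, 0.005 and 0.498.

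Of the 297 tested miRNAs matched to a chromosome, 27 lay only on chromosome X, the 5 members included, and their median log2-fold change was 0.03. Among the 27, 1 was higher and 1 lower in the LLC group at an unadjusted p of at most 0.05 in edgeR's test. Of all 304 tested miRNAs, 16 were higher and 34 lower at that threshold. The miR-322 cluster (7 tested) had a median of -0.09, with 3 above and 4 below 0, and the miR-17-92 cluster (6 tested) had a median of 0.25 with all 6 above 0. Over all 304 tested miRNAs, 141 were above 0 and 163 below. No miRNA of these lists passed the adjusted threshold.

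Markers of other cell types moved between libraries as follows. The summed level of the 3 erythroid miRNAs was 215 to 325 CPM in the control mice and 92.4 to 220 CPM in the LLC mice, with all 3 lower in the LLC group. All 5 tested muscle fiber miRNAs were lower. The 3 fibroblast miRNAs (1 higher, 2 lower) summed to 1939 to 2371 CPM and 1759 to 3300 CPM. The highest sum was that of L5, the mouse with the least miR-532-5p, and nearly all of it was miR-199a-3p (3122 CPM). The other fibroblast miRNAs were not high in L5. There miR-199a-5p was the lowest of all mice (154 CPM), and miR-214-3p (24.7 CPM) was below every control mouse. Of the 5 leukocyte miRNAs 4 were higher and 1 lower in the LLC group, although their sum was 691 to 800 CPM in the control mice and 583 to 742 CPM in the LLC mice. Most of that sum was miR-150-5p, the 1 that was lower (log2-fold change -0.38). The 2 endothelial miRNAs, both lower, summed to 26211 to 33929 and 24162 to 29972 CPM, mostly miR-126a-5p. The 2 smooth muscle miRNAs (1 higher, 1 lower) summed to 49377 to 65094 and 50948 to 94775 CPM, mostly miR-143-3p. None of these miRNAs passed the adjusted threshold, and no list had a marker at 0 in every library. The part of these cells in the level of miR-532-5p was not tested.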

How the data were processed

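miRNA-Seq libraries (TruSeq small RNA, single-end 50 bp reads) came from the TA muscle of 4 control and 5 LLC mice. The authors mapped the reads with Bowtie to miRBase version 21, with 0 mismatches in a seed of 8 bases and all best alignments kept, and deposited whole-number counts per mature miRNA, without normalization. Reads carry no molecular identifiers, so the Wilson intervals of the arm ratio and the floor of 3 counts cover counting error only. The intervals of the fold changes between groups came from edgeR's quasi-likelihood fit and include the spread between mice.

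Counts were fitted with edgeR 4.0.16 in R 4.3.3 (TMM, quasi-likelihood test, no block) on the 304 miRNAs that exceeded 32 counts in some library, and p-values were adjusted by Benjamini-Hochberg over all 304. Log2 CPM (prior count 2), arm ratios (0.5 added) and correlations were tested by two-sided exact permutation in Python 3.11.15, with p-values adjusted over all miRNAs or hairpins tested. Alternatives were RLE, upper quartile and no factors, other filters, DESeq2 1.42.0, limma 3.58.1 with voom, robust estimation, a replicate block, a prior count of 0.5, deviations from group means and leaving out each mouse. The pairs among members other than with miR-532-5p, and the pair medians of the other lists, were computed as a description. Scripts were tested on simulated data.

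The members, lists and rules for named miRNAs were chosen with earlier results of these data known. Named were all arms of the hairpins, the 5 miRNAs with the highest r with miR-532-5p and those with a member's seed. Hairpin and Clcn5 positions came from the annotation of GRCm38 and sequences from RefSeq on GRCm38.p6. Within groups no libraries were copies (lowest chi-square per degree of freedom 124). Same-numbered mice are different animals.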

Additional observations from a re-analysis of the deposited data

Results flagged for a closer look

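The level of miR-362-5p in control mouse C4 was 3.95 CPM, while the other 3 control mice lay between 2.83 and 2.98 CPM. C4 was far from the others relative to the range of its group, but the value rests on 20 counts. It was the only such value among 20 groups of values examined, and chance gives about 1 in 20.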

How the results depend on the processing

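The count of members past the threshold was 0 under all 20 alternatives to edgeR with TMM, and the log2-fold change of miR-532-5p kept its direction in the 19 that give it, at -0.34 to -0.07. For near-zero differences the sign turned. For miR-501-3p the log2-fold change was 0.0219 with RLE, 0.10 with upper quartile factors, 0.0127 without a filter, 0.00342 with over 32 counts in at least 4 libraries, 0.0238 with DESeq2 and 0.0200 with its beta prior. For miR-362-3p it was 0.0346, 0.12, 0.0371, 0.0110, 0.0331 and 0.0288 in the same order, and 0.0103 with voom. With library totals alone it was -0.0460 for miR-532-3p and -0.0962 for miR-500-3p. The permutation differences with library totals were -0.0545 for miR-532-3p, -0.0905 for miR-500-3p and -0.13 for miR-362-3p, and the members at an unadjusted p of at most 0.05 went from 1 to 0. The cause was not tested.

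With the replicate block the log2-fold change was -0.14 for miR-532-3p and 0.0395 for miR-362-3p, and the block changed no call. The numbers mark different mice, and deviations of same-numbered mice correlated at -0.231, -0.0899 and -0.249.

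Leaving out each mouse gave log2-fold changes of -0.23 to -0.13 for miR-532-5p, 0.01 to 0.25 for miR-532-3p, 0.01 to 0.14 for miR-500-3p, -0.18 to 0.0947 for miR-501-3p and -0.15 to 0.10 for miR-362-3p. Permutation differences were -0.00275 to 0.23 for miR-532-3p, -0.19 to 0.0458 for miR-501-3p and -0.14 to 0.13 for miR-362-3p, with 0 to 1 members at an unadjusted p of at most 0.05. The arm ratio difference was -0.41 to -0.15. r with miR-532-5p was -0.522 to 0.397 for miR-532-3p, -0.777 to 0.136 for miR-500-3p, -0.547 to 0.218 for miR-501-3p and -0.0672 to 0.917 for miR-362-3p, with 0 members past adjustment.

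The number of members correlated with miR-532-5p past adjustment rose from 0 to 1 with library totals, where r was 0.322 for miR-532-3p, 0.721 for miR-500-3p and 0.749 for miR-362-3p. With deviations from the group means r of miR-500-3p was 0.0686. Without C1 and L5 r was 0.423 for miR-532-3p, 0.504 for miR-501-3p and -0.192 for miR-362-3p.

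Depth limited miR-362-5p and miR-188-5p, which were under the count minimum, and for the 3p arms of miR-532, miR-362 and miR-500 the counting error was 10.6 to 13.7% per mouse.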
